A study of Homo sapiens with 4 samples.

Results

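Dual specificity phosphatases remove phosphate from both tyrosine and threonine or serine residues of their substrates. The 10 genes described here were taken by symbol from the deposited table, in which all 10 have a row among 20372 genes, and they fall into 4 classes by the location and preferred substrate of the protein. The nuclear class holds DUSP1, DUSP4, and DUSP5, the cytoplasmic ERK-type class DUSP6 and DUSP7, and the p38/JNK-type class DUSP8, DUSP10, and DUSP16. DUSP3 and DUSP14 are small atypical enzymes that belong to none of these and are described apart. TPC1, a long-established line from a papillary thyroid cancer, carries a CCDC6-RET fusion, and all libraries came from TPC1 cells exposed to the RET inhibitor BLU6864, for 6 h or for 24 h, with 2 libraries at each time. The cells grew in DMEM with serum, and both titles at 24 h carry the remark re-analysis. The labels give a dose of 100 µM, whereas the methods of the study give the same figure in nM. Every group carried the inhibitor and vehicle libraries were not analysed here, so an effect of the drug cannot be told apart from an effect of the hours in culture. The titles at 6 h carry no re-analysis remark, and the labels do not say what it means. Any difference between libraries that the remark marks therefore cannot be told apart from time either.

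Signals from receptor tyrosine kinases pass through RAS, RAF, and MEK to ERK, while stress and cytokine signals reach the kinases p38 and JNK. MAP kinase phosphatases switch these kinases off, and several of their genes are themselves transcribed in response to MAP kinase activity, which makes them a negative feedback on the pathway. In thyroid cancers driven by RET or BRAF, transcripts such as DUSP4, DUSP5, and DUSP6 are widely read as a measure of ERK output.

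The total count per library ranged from 23917056 to 27457040. Spearman's correlation across genes was 0.990 between the 24 h libraries, 0.989 between the 6 h libraries, and at most 0.972 between times. Nothing in the labels says whether the 2 libraries of a time came from separate cultures, so P values measure only the spread between these libraries, which may be technical. In the tests below that spread is shared over genes, so the P value of a gene does not rest on its own counts alone. Of the thyroid markers, PAX8 had between 19124 and 22978 counts in each library and TG between 98 and 245, whereas TSHR and NKX2-1 had no count, so the labelled thyroid identity rested mainly on PAX8. The epithelial keratin genes KRT8, KRT18, and KRT7 were present, whereas the epithelial marker EPCAM had 11 and 6 raw counts at 6 h and 1 and 1 at 24 h. The 6 white blood cell markers summed to between 2 and 7 counts per library. The second 6 h library stood apart in its mitochondrially encoded transcripts, 6 of which summed to 19853 CPM against 11641 to 13443 in the other 3 libraries, and 5 of these 6 transcripts were lower at 24 h. The part of this in the results below was not tested, and results without that library are given beside them.

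RefSeq promoter windows on GRCh38.p14 were matched for 8 of the 10 genes. DUSP4 and DUSP5, both higher at 24 h in edgeR, had no window and were not searched. The 250 bases before the transcription start were searched on both strands for the cAMP response element TGACGTCA and for the CCAAT box CCAAT. The windows of 4 genes are shown because they hold all the matches to these elements: DUSP1 and DUSP8 are the gene with the largest fall and the gene with the largest rise among the 10, and DUSP6 and DUSP10 are a further gene that fell and one that rose. Capitals mark both elements, and the windows read 5′ to 3′ on the strand of the gene, up to the base before the start.
DUSP1, chr5:172771196-172771445, minus strand: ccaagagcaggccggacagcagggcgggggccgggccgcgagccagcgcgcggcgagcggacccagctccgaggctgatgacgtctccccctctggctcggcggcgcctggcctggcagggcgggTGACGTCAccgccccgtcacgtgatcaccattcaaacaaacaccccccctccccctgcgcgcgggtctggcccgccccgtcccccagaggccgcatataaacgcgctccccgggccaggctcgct
DUSP8, chr11:1572272-1572521, minus strand: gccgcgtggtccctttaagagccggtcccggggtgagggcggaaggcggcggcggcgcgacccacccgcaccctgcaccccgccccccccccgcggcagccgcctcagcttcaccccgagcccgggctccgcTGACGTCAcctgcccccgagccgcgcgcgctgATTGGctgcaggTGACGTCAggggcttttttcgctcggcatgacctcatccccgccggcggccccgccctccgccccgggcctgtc
DUSP6, chr12:89352502-89352751, minus strand: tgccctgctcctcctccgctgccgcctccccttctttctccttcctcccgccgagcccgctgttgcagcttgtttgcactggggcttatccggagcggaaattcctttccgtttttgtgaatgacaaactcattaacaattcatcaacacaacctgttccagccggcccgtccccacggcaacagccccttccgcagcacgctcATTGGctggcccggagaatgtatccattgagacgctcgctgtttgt
DUSP10, chr1:221742090-221742339, minus strand: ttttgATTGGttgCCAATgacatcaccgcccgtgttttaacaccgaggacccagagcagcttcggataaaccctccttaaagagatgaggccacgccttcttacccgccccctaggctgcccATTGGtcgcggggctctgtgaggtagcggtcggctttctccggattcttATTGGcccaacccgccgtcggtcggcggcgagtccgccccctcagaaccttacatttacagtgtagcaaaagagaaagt
DUSP1 held 1 cAMP response element, beginning 125 bases before the start, and DUSP8 held 2, at 118 and 74 bases. Of 35116 such windows over all genes, 1.65% held this element and 0.0541% held it 2 or more times. The CCAAT box occurred in 32% of all windows, once in DUSP6 at 46 bases, once in DUSP8 at 86 bases, and 4 times in DUSP10, at 245, 237, 128, and 79 bases. DUSP10 has a second RefSeq start, whose window held neither element. The DUSP1 window also held a TATA box (TATAAA) at 30 bases and an E-box (CACGTG) at 108 bases, in 10.7% and 6.34% of all windows. No window of the 8 genes held an AP-1 site (TGANTCA), an ETS site (CCGGAAGT), or a CArG box, which 6.57%, 3.42%, and 1.16% of all windows held. These matches describe the letters of the windows and not binding. DUSP1, which fell, and DUSP8, which rose, were the only genes of the 8 that held a cAMP response element. A link between the elements and the changes was not tested.

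Between 6 h and 24 h of BLU6864, 5 of the 10 phosphatase genes rose, 2 fell, and 3 did not pass the test. Those that rose were DUSP4 and DUSP5 of the nuclear class, DUSP8 and DUSP10 of the p38/JNK-type class, and the atypical DUSP3. Those that fell were the nuclear DUSP1 and the cytoplasmic DUSP6, and DUSP7, DUSP16, and DUSP14 were not called. Counts are given after TMM scaling, a gene was called where its P from the quasi-likelihood test of edgeR, adjusted by Benjamini and Hochberg over 12876 genes, was under 0.05, and all 10 genes passed the filter on low counts. Of all genes tested, 65.6% were called by the same rule, 33.0% higher and 32.6% lower, so 7 of 10 is near the share of genes in general. With DESeq2 6 of the 10 were called, 4 higher and 2 lower, against 49.9% of genes, 24.8% higher and 25.0% lower. Without the second 6 h library edgeR also called 4 higher and 2 lower, against 57.9% of genes, 28.7% higher and 29.2% lower. The methods of the study state a cutoff for lower genes alone, a log2 fold change under -0.5 with P under 0.01. With that cutoff, and its mirror image applied here to higher genes, 5 were higher and 1 lower, against 35.1% of genes, 17.4% higher and 17.7% lower. Scaled counts of the 2 times did not overlap for 8 of the 10 genes, 6 higher and 2 lower, against 81.8% of genes, 41.0% higher and 40.8% lower. The median log2 fold change of the 10 genes was 0.39, against 0.0029 over all genes tested. A lower count in bulk RNA cannot tell fewer cells that make a transcript from less transcript per cell.

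**Figure D1:**
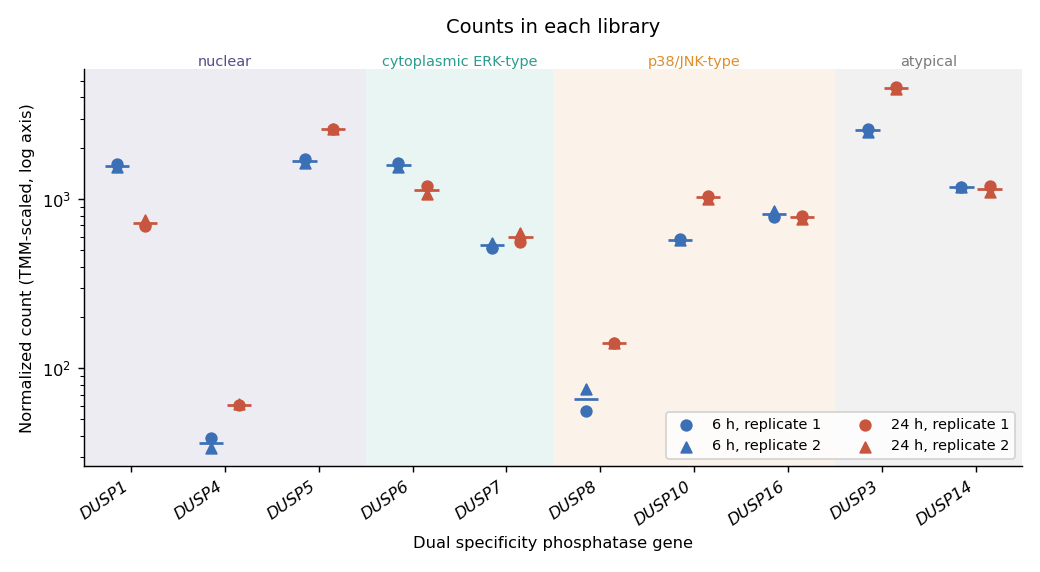
TMM-normalized counts of the 10 phosphatase genes (log axis) in each 6 h library (blue) and 24 h library (red), with circles for replicate 1, triangles for replicate 2, and bars at the mean of the 2 libraries. The 24 h points lie apart from the 6 h points for 8 genes and overlap them for DUSP16 and DUSP14.

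In the nuclear class, edgeR called all 3 genes, 2 higher and 1 lower, against 65.6% of all genes called in either direction. DUSP1 encodes a broad MAP kinase phosphatase that acts on p38, JNK, and ERK and is a classic immediate early gene. It lies on chromosome 5 of hg19 from 172195093 to 172198198. DUSP1 had 1606.3 and 1545.6 normalized counts at 6 h and 694.4 and 753.2 at 24 h. Both 24 h values were far below both 6 h values. The means were 1576 ± 43.0 (SD, n = 2) and 724 ± 41.6, which is -1.12 ± 0.0771 (SE) on the log2 scale (adjusted P = 9.62e-13, edgeR). The 24 h level was 0.460 times the 6 h level, with a 95% interval from 0.412 to 0.513, and 86.6% of all genes tested had a smaller change in either direction.

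DUSP5, on chromosome 10 from 112257596 to 112271302, encodes a nuclear phosphatase specific for ERK. Its normalized counts were 1722.9 and 1635.8 at 6 h and 2586.4 and 2612.9 at 24 h. The 2 times did not overlap, and the libraries within a time lay close together. DUSP5 rose from 1679 ± 61.6 to 2600 ± 18.7 normalized counts (SD, n = 2), which is 0.63 ± 0.0702 (SE) on the log2 scale (adjusted P = 1.24e-08, edgeR). Without the second 6 h library the log2 fold changes were -1.15 for DUSP1 and 0.59 for DUSP5.

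DUSP4, on chromosome 8 from 29190581 to 29208185, encodes a nuclear phosphatase of ERK and JNK. It was the least abundant of the 10 genes, with 36 and 35 raw counts at 6 h and 61 and 63 at 24 h. The 24 h libraries were above the 6 h libraries, but the exact Poisson 95% interval of the lowest 24 h count, from 46.7 to 78.4, overlapped that of the highest 6 h count, from 25.2 to 49.8. Such intervals cover counting error only. On the log2 scale DUSP4 was higher by 0.76 ± 0.230 (SE) at 24 h (adjusted P = 0.00561, edgeR), with an interval from 0.28 to 1.23. With DESeq2 the adjusted P was 0.0971, and with edgeR without the second 6 h library the log2 fold change was 0.65 with an adjusted P of 0.0666, so this call was lost under both.

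In the cytoplasmic ERK-type class, 1 of 2 genes was called (50%), against 65.6% of all genes. DUSP6, which encodes the principal cytoplasmic phosphatase of ERK, lies on chromosome 12 from 89741009 to 89747048. It had 1645.2 and 1540.8 normalized counts at 6 h and 1194.6 and 1077.3 at 24 h. The 24 h libraries lay below the 6 h libraries. DUSP6 fell from 1593 ± 73.8 to 1136 ± 82.9 normalized counts (SD, n = 2), which is -0.49 ± 0.0750 (SE) on the log2 scale (adjusted P = 2.68e-06, edgeR). This change did not reach the cutoff of -0.5 in the methods of the study, and 60.7% of all genes tested had a smaller change. Without the second 6 h library it was -0.54. An antisense long noncoding RNA overlaps exons of DUSP6 in GENCODE v44, and the strand setting of the counting is not given in the sources used here, so reads of the pair cannot be told apart.

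DUSP7, on chromosome 3 from 52082935 to 52090566, encodes a close relative of DUSP6 that also prefers ERK. Its normalized counts were 516.0 and 552.6 at 6 h and 560.9 and 628.6 at 24 h. The 24 h libraries were higher without overlap, but the gap between times was smaller than the difference between the libraries of either time. The log2 fold change was 0.15, with an interval from -0.03 to 0.34 (edgeR adjusted P = 0.144), so a rise of up to 1.27-fold lies within the error.

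The p38/JNK-type class had 2 genes of 3 that rose and none that fell. That is 66.7% called, near the 65.6% of all genes. DUSP10 encodes a phosphatase of p38 and JNK found in both nucleus and cytoplasm, and lies on chromosome 1 from 221874766 to 221915518. It had 581.9 and 573.7 normalized counts at 6 h and 1042.1 and 1007.2 at 24 h. The libraries of a time were close together and the times far apart. DUSP10 rose from 578 ± 5.76 to 1025 ± 24.7 normalized counts (SD, n = 2), which is 1.77-fold with an interval from 1.58 to 1.99 (adjusted P = 1.46e-09, edgeR). Without the second 6 h library the log2 fold change was 0.81, against 0.83 with it.

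DUSP8, on chromosome 11 from 1575274 to 1593150, encodes a phosphatase of the same substrates that is best known from brain and heart. Its raw counts were 52 and 79 at 6 h and 141 and 146 at 24 h. The 6 h libraries differed from each other more than the 24 h libraries did, and both 24 h values were above them. After scaling, DUSP8 had 66.0 ± 13.9 counts at 6 h and 141 ± 1.13 at 24 h (SD, n = 2), which is 1.09 ± 0.175 (SE) on the log2 scale (adjusted P = 5.11e-06, edgeR). The largest rise among the 10 genes was thus also the second least precise. Without the first 6 h library its log2 fold change was 0.90, and without the second it was 1.33, and the adjusted P was at most 0.000581 under every alternative run.

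DUSP16, on chromosome 12 from 12628829 to 12715317, encodes a phosphatase that prefers JNK. It had 788.0 and 856.7 normalized counts at 6 h and 794.0 and 766.8 at 24 h, so the times overlapped. Its log2 fold change was -0.08, with an interval from -0.25 to 0.09 (edgeR adjusted P = 0.424). The interval of the fold runs from 0.843 to 1.07.

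**Figure D2:**
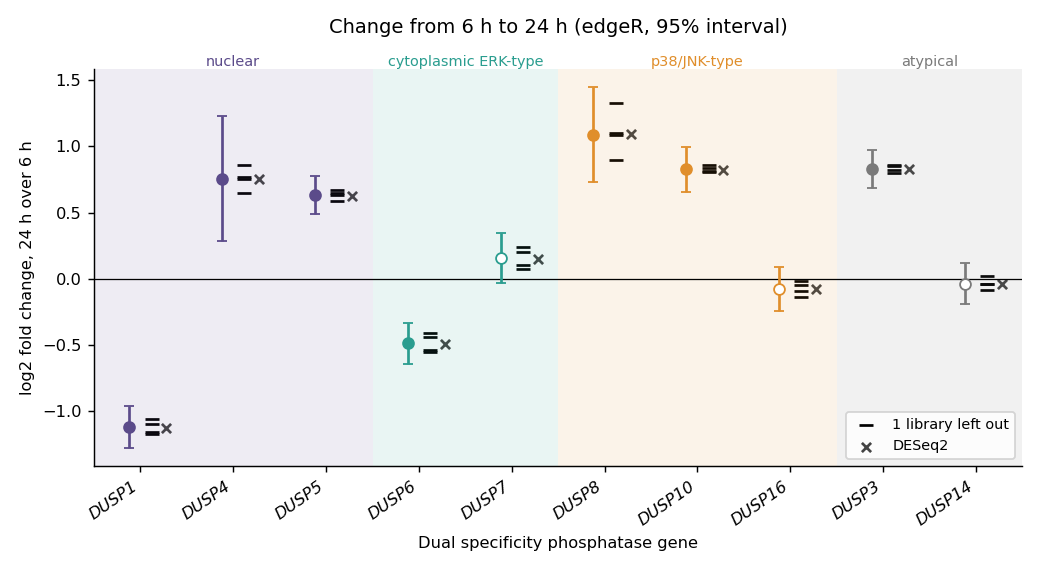
Log2 fold change of each phosphatase gene from 6 h to 24 h, with circles for the edgeR estimate, bars for its 95% interval, filled symbols for called genes, dashes for the 4 fits without 1 library, and crosses for DESeq2. DUSP1 lies lowest at -1.12 and DUSP8 highest at 1.09, and the intervals of DUSP7, DUSP16, and DUSP14 cross 0.

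The atypical enzymes lack the kinase-binding domain of the other classes. DUSP3, which acts on ERK, JNK, and other phosphotyrosine proteins, lies on chromosome 17 from 41843489 to 41856356. It had 2603.8 and 2509.8 normalized counts at 6 h and 4589.9 and 4503.7 at 24 h, the highest counts of the 10 genes at both times. DUSP3 rose from 2557 ± 66.5 to 4547 ± 61.0 (SD, n = 2), which is 1.78-fold with an interval from 1.61 to 1.97 (edgeR adjusted P = 7.52e-11). Without the second 6 h library its log2 fold change was 0.80, against 0.83 with it. DUSP14, also on chromosome 17 from 35849937 to 35873603, encodes a small phosphatase known from T cell signaling. Its 24 h libraries, with 1192.6 and 1108.4 normalized counts, lay on either side of its 6 h libraries, with 1179.9 and 1179.1. The log2 fold change was -0.04, with an interval from -0.19 to 0.12 (edgeR adjusted P = 0.688).

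**Figure D3:**
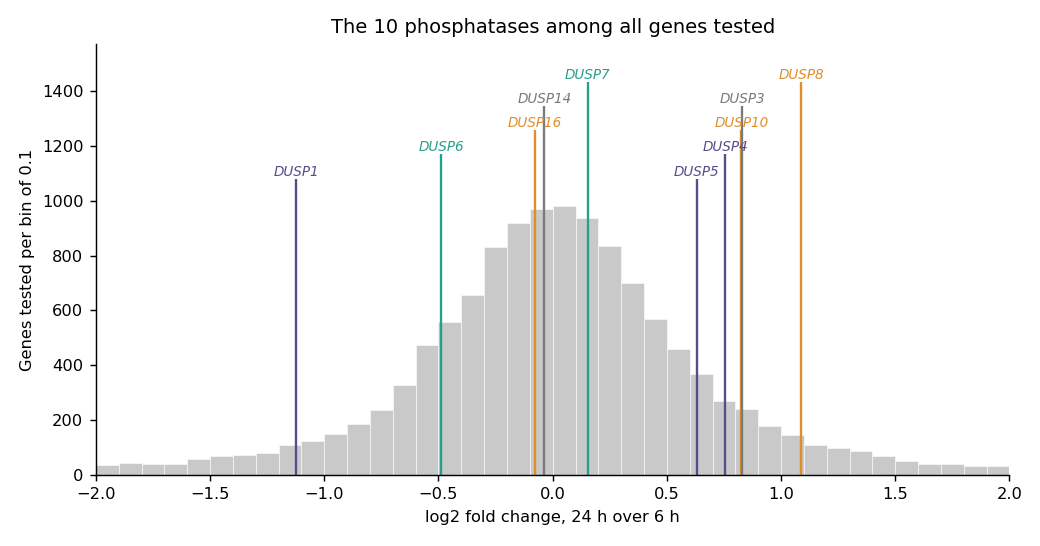
Number of genes tested (y axis) by log2 fold change from 6 h to 24 h in bins of 0.1 (gray bars), with a line for each phosphatase gene coloured by class (purple nuclear, green cytoplasmic ERK-type, orange p38/JNK-type, gray atypical). Another 658 genes lie outside the axis limits of -2 and 2, and the 5 phosphatase genes that rose lie between 0.63 and 1.09.

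To compare levels between genes, counts were set per length, as RPKM over the longest protein-coding transcript after TMM scaling. At 6 h the order from high to low was DUSP1 with a level of 29.9 ± 0.816 (SD, n = 2), DUSP5 with 25.9 ± 0.951, DUSP3 with 23.9 ± 0.621, DUSP14 with 20.4 ± 0.0101, and DUSP6 with 16.8 ± 0.778. These were followed by DUSP10 with a level of 8.53 ± 0.0850, DUSP7 with 6.08 ± 0.294, and DUSP16 with 4.72 ± 0.279. DUSP8, with 0.523 ± 0.110, and DUSP4, with 0.249 ± 0.0257, were the lowest by a wide margin.

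At 24 h DUSP3 led with a level of 42.5 ± 0.569, before DUSP5 with 40.1 ± 0.289, DUSP14 with 19.9 ± 1.03, and DUSP10 with 15.1 ± 0.365. DUSP1 followed with 13.7 ± 0.790 and DUSP6 with 11.97 ± 0.874. The lowest 4 genes kept their order, with levels of 6.77 ± 0.545 for DUSP7, 4.48 ± 0.110 for DUSP16, 1.12 ± 0.0090 for DUSP8, and 0.420 ± 0.00260 for DUSP4. No neighbours in either order had overlapping libraries. With the length of all exons in place of the longest transcript, DUSP3 and DUSP5 traded places at 24 h, and DUSP7 and DUSP16 did so at both times. DUSP1 had a higher level than 80.6% of the genes tested at 6 h and than 64.5% at 24 h. DUSP4 had a higher level than 6.05% and 9.37% of them, so its rise took place near the bottom of the expressed range.

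Summed over each class, the level per length overlapped between times in the nuclear class and was higher at 24 h in the p38/JNK-type and atypical classes. The nuclear sum was 57.4 and 54.8 at 6 h and 53.5 and 55.1 at 24 h, since the fall of DUSP1 and the rise of DUSP5 were of like size on this scale. The cytoplasmic ERK-type sum went from 23.2 and 22.5 to 19.0 and 18.5. The p38/JNK-type sum went from 13.6 and 14.0 to 21.1 and 20.4, and the atypical sum from 44.8 and 43.9 to 63.5 and 61.2. Most of the p38/JNK-type rise came from DUSP10, with mean levels of 8.53 and 15.1, whereas DUSP16 had 4.72 and 4.48. In the atypical class DUSP3 had mean levels of 23.9 and 42.5, whereas DUSP14 had 20.4 and 19.9. As a share of all 10 genes, the nuclear class took 41.3% and 40.6% at 6 h and 34.1% and 35.5% at 24 h, whereas the p38/JNK-type class took 9.76% and 10.3% at 6 h and 13.4% and 13.1% at 24 h. The atypical share went from 32.2% and 32.4% to 40.4% and 39.5%, the largest shift of the 4 classes. The cytoplasmic ERK-type share went from 16.7% and 16.7% to 12.1% and 11.9%. The nuclear share was thus lower at 24 h although the nuclear sum overlapped between times. These sums and shares are descriptions of each library, without a test.

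**Figure D4:**
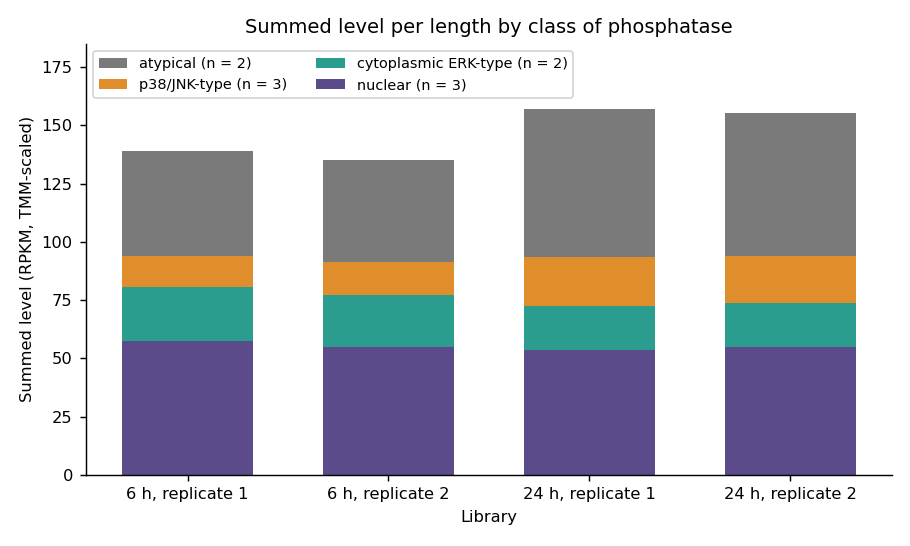
Level per length (RPKM, TMM-scaled) summed over the genes of each class, stacked for each library. All 10 genes together sum to 139 and 135 in the 6 h libraries and to 157 and 155 in the 24 h libraries, and the atypical part (gray) differs most.

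Of the rest of the family, 4 of 9 genes tested were called (44.4%), against 65.6% of all genes, and the difference from the 10 genes was not tested. DUSP2 and DUSP9, the remaining inducible and cytoplasmic MAP kinase phosphatases listed, had at most 3 and 6 raw counts in any library and were not tested. Of 15 other atypical family members, 9 had enough counts for the test, of which 1 was higher and 3 were lower at 24 h, against 33.0% and 32.6% of all genes. DUSP19 fell from 174 ± 16.6 to 73.9 ± 6.80 normalized counts (SD, n = 2), which is -1.23 on the log2 scale (adjusted P = 2.01e-07, edgeR). DUSP18 and DUSP12 had log2 fold changes of -0.46 and -0.24, and STYXL1, a catalytically inactive relative, one of 0.31. These 3 calls were lost with DESeq2, where DUSP18, STYXL1, and DUSP12 had adjusted P values of 0.0551, 0.0597, and 0.0808. The call of DUSP12 was also lost in edgeR without the second 6 h library (adjusted P = 0.136) and without the second 24 h library (adjusted P = 0.262). That of STYXL1 was lost without the first 6 h library.

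The MAP kinases on which the phosphatases act, and the kinases above them, also moved both ways. Over 5 lists of pathway genes, 18 genes were higher and 15 lower of 42 tested, or 78.6% against 65.6% of all genes. Among the 10 MAP kinases, 5 were higher and 3 lower. MAPK12 and MAPK13, both of the p38 family, moved in opposite directions, with log2 fold changes of 0.61 and -0.67 (adjusted P = 8.65e-08 and 4.65e-09, edgeR). The JNK genes MAPK8 and MAPK9 had log2 fold changes of -0.24 and -0.26, while the less abundant MAPK10 had 0.53, and MAPK7, which encodes ERK5, had 0.39. The call of MAPK10 was lost with DESeq2 (adjusted P = 0.0980), and that of MAPK8 in edgeR without the second 24 h library (adjusted P = 0.0854). Of 7 MAP kinase kinases, MAP2K3, an activator of p38, was higher with a log2 fold change of 0.63, and MAP2K1, which encodes MEK1, and MAP2K4, an activator of JNK, were lower with -0.65 and -0.26. Among other phosphatases that act on MAP kinases, PPM1B and PPP2CB had log2 fold changes of 0.46 and 0.27, and PPP2CA had -0.35.

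Of 8 further genes commonly read as ERK output, 5 were called higher and 2 lower, against 33.0% and 32.6% of all genes, and their median log2 fold change was 0.57, against 0.0029 over all genes. The receptor gene EPHA4 rose from 62.7 ± 18.2 to 357 ± 5.94 normalized counts (SD, n = 2), which is 2.52 on the log2 scale (adjusted P = 7.28e-14, edgeR). SPRY2, another feedback inhibitor of the pathway, and EPHA2 had log2 fold changes of 1.46 and 0.96. PHLDA1 and the ETS factor gene ETV4 fell, with log2 fold changes of -0.71 and -0.43. The call of ETV4 was lost with DESeq2 (adjusted P = 0.0755), and in edgeR without the second 24 h library (adjusted P = 0.0953) and without the first 6 h library (adjusted P = 0.308). Among the phosphatases described above as acting on ERK, DUSP3 and DUSP5 were higher, DUSP1 and DUSP6 were lower, and DUSP7 was not called. DUSP4 was higher in edgeR but not called with DESeq2. Of 11 immediate early genes tested, edgeR called 5 higher and 6 lower, against 65.6% of all genes called, with a median log2 fold change of -0.32. The calls of EGR1 and FOSB were lost with DESeq2 (adjusted P = 0.234 and 0.201) and with some libraries left out. For EGR1 these were the second 24 h and the second 6 h library, and for FOSB either 24 h library and the first 6 h library. Scaling by library size alone also lost EGR1, and upper quartile scaling lost FOSB. FOSL1, JUN, and FOSL2 had log2 fold changes of 1.02, 0.64, and 0.36, whereas FOS, JUNB, and ATF3 had -1.75, -1.18, and -1.03, on the same side as DUSP1.

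**Figure D5:**
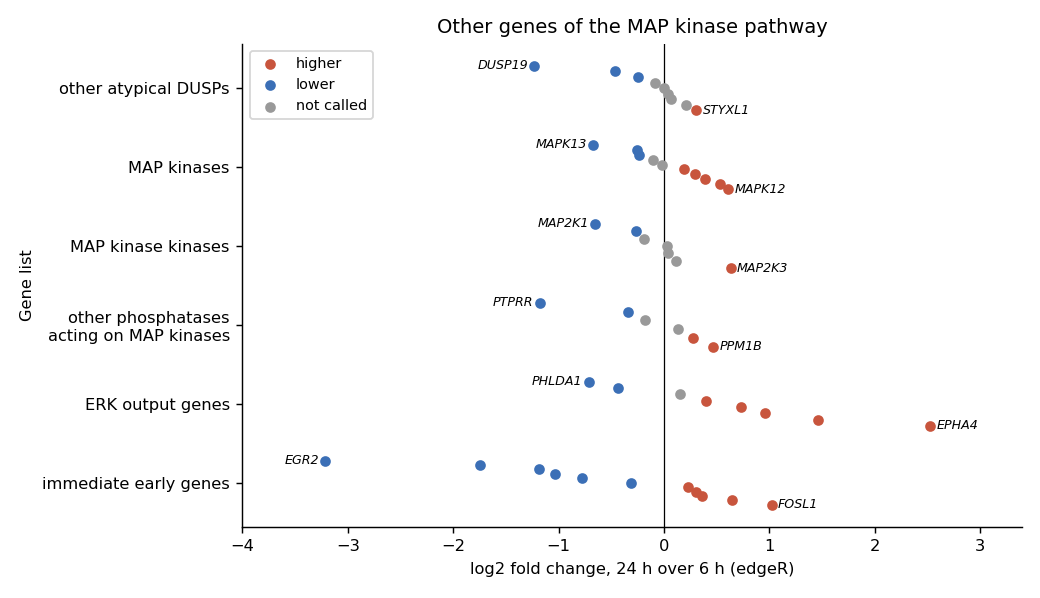
Log2 fold change from 6 h to 24 h (x axis) of the other family members and of 5 lists of pathway genes (rows), 1 point per gene tested, in red for genes called higher, blue for genes called lower, and gray for genes not called. The gene at each end of a list is named, and every list has genes on both sides of 0, from EGR2 at -3.21 to EPHA4 at 2.52.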

How the data were processed

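RNA-seq libraries of TPC1 cells exposed to BLU6864 for 6 h or 24 h (2 each) were analysed. Per the labels, reads were 50 bp single-end and the submitters' processing notes name STAR 2.3, DESeq2, and hg19. The methods describe paired-end reads instead, and the counting program is not given in the sources used here. The authors deposited the raw read count of each of 20372 genes, and a normalized signal, which is the count divided by one size factor per library. The normalized signal was not tested. The authors' own fold changes and P values in the same table were not used. Columns of values per sample left unused numbered 0.

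The main test was the quasi-likelihood fit of edgeR 4.0.16 (R 4.3.3) on the deposited counts, where the methods of the study name DESeq2. It used filterByExpr (12876 genes), TMM scaling, and a model of time alone. Standard errors were derived from the F statistics. In simulated data with 200 changed genes among 12876, edgeR recovered 89% of 2-fold changes and 4.57% of its calls were false. The simulation gave every gene the same dispersion and changed far fewer genes than were called in the data. These rates may therefore not hold for the real libraries. Lengths came from GENCODE v44, matched by identifier or symbol for 18942 genes, and promoters from RefSeq on GRCh38.p14. Positions are hg19, as deposited.

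The genes, classes, and lists were chosen with earlier results of these data known. Named from the other lists were up to 3 called genes per direction with the largest change and a mean raw count of at least 50. DESeq2 1.42.0, other scalings (RLE, upper quartile, library size alone), a block for the replicate number, other filters (none, or a minimum of 10 counts per library), the cutoff of the methods for lower genes (log2 fold change under -0.5 with P under 0.01), mirrored here for higher genes, and each library left out were the alternatives. Class shares by exon length were added after seeing the data. Protein sequences were not used here.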

Additional observations from a re-analysis of the deposited data

How the results depend on the processing

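Calls of the 10 genes at an adjusted P under 0.05 were lost for DUSP4, with DESeq2 and without the second 6 h library, and for no other gene under the alternatives run. The number of higher genes was 4 or 5 in every fit. The number of lower genes was 2, except that the fold cutoff (log2 fold change under -0.5 and P under 0.01 as in the methods, mirrored here for higher genes) left 1, without DUSP6. The log2 fold change of DUSP14, not called, ranged from -0.0821 to 0.0231 with a library left out, and turned to 0.0231 without the second 24 h library. In fits with 1 library at a time point, that library is assumed to vary like the others. The other family members had 0 higher genes with DESeq2 (1 at an unadjusted P under 0.05) and 0 with the fold cutoff (1 at an unadjusted P under 0.05), in place of 1, and 1 lower gene in place of 3 under both. With a library left out, edgeR gave 0 or 1 higher, the 0 being without the first 6 h library (0 at an unadjusted P under 0.05). Of the 42 pathway genes tested, 9 were higher and 9 lower by the fold cutoff, against 17.4% higher and 17.7% lower of all genes. By exon length, 14 of 20 places in the order of levels stayed, and the share of the cytoplasmic ERK-type class changed by -4.57 percentage points in place of -4.69. The replicate numbers share no stated meaning, the deviations of same-numbered libraries correlated at 0.0844 across genes, and with the replicate number as a block 5 of the 10 genes were higher and 2 lower, as without it. The median over all genes moved to -0.040 with library size alone and 0.033 with upper quartile scaling. Depth limits DUSP4 and DUSP8 most.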

Other observations

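Ratios of raw counts within a library do not depend on how libraries are scaled. They are not set per length, so they show how a pair shifted between times and not which of its genes had the higher level. These pairs were chosen after their values were seen, and no test was run. DUSP5 had 1.07 and 1.06 counts per count of DUSP1 at 6 h and 3.72 and 3.47 at 24 h. DUSP5 over DUSP6, both directed at ERK, went from 1.05 and 1.06 to 2.17 and 2.43. DUSP10 over DUSP16, both of the p38/JNK-type class, went from 0.738 and 0.670 to 1.31 and 1.31. DUSP3 over DUSP14 went from 2.21 and 2.13 to 3.85 and 4.06.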
